A study of Anas platyrhynchos x Cairina moschata with 137 samples.

Results

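In the liver of mule ducks, 13 of the 50 genes measured by quantitative PCR had their highest mean relative expression at embryonic day 20 (E20). These genes were chosen by that property alone. For each gene, the arithmetic mean of the relative expression was taken at each of 7 stages over the animals with a value, and the genes whose highest mean fell at E20 were kept. They are rows 1, 7, 8, 10, 11, 12, 18, 24, 26, 27, 32, 48 and 50 of the 2 tables used here, which list genes by number; the key to these numbers was not used here. The peak itself is therefore how the genes were picked and not a finding, and every comparison with E20 is given as values with no test. One liver was taken per animal, and mule ducks are hybrids of Muscovy and common ducks. The groups are the embryonic days E12, E16, E20, E24 and E28 and the days 1 and 4 after hatching (D1 and D4), of which E12, E24 and D1 hold 19 animals and the others hold 20. All eggs came from mothers of genotype H85 and shared 1 incubation, and no stage had a treated group. Between E24 and E28 the eggs were moved to a slightly cooler and more humid hatcher. Age and housing therefore cannot be told apart between these stages. The D1 ducklings had not yet been fed, whereas the D4 ducklings had been moved to a cooler rearing room with feed at will, so age, feeding and ambient temperature cannot be told apart on D4.

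The embryonic liver of a bird lives on the yolk and albumen of its egg. It takes up glucose and breaks it down through glycolysis, it burns fatty acids released from yolk lipid by beta-oxidation, and it stores glycogen that is spent at hatching. Once the hatchling eats a diet rich in starch, the liver turns to making fat from carbohydrate. The panel covers liver functions tied to fattening. It holds genes of liver development, such as HGF, a growth factor for hepatocytes, and PROX1, a transcription factor of early liver cells. It also holds genes of carbohydrate use, such as the glucose transporter GLUT2 and HK1, the hexokinase that starts glycolysis. Genes of lipid metabolism include FASN, which makes fatty acids, and CPT1A, which admits them to the mitochondria, and the stress genes include the chaperone HSP90AA1. No row was assigned to any of these genes, so the rows below carry no function, and the liver identity of the samples was not checked against marker genes.

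The relative expression is a linear ratio. The amount of a target, read from the cycle at which its fluorescence passes a threshold (Ct), is divided by the geometric mean of 5 references, and a value of 1 stands for the mean Ct of that gene relative to the references over all animals. It compares stages within a row and does not compare rows with each other. In bulk liver, fewer cells of a type and less RNA per cell cannot be told apart. The median Ct of the 13 rows ran from 9.38 in row 24 to 21.6 in row 26, with a median of 16.7 against 16.5 over all 50 rows, so early and late amplifying genes were both among them. The paper names luciferase among the 5 references, a foreign RNA put into every sample when cDNA was made. The others are POL2, SDHA, PDHA1 and GLUT8, none of which it describes as foreign. No reference row was assigned to any of these names, and which row is luciferase was not tested. Among the 5, reference row 54 was the only one read earlier at E28 than at E20, by 0.337 cycles. It also had the smallest SD of the Ct between animals at every stage. The mean Ct of the 5 references was 14.9 cycles at E20 against 14.2 at E12 and 14.3 at E16. It reached 16.1 at E28. These shifts enter every value below, and their effect on the peak is given after the stage profiles.

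The 13 rows differed in how they reached E20. The E20 mean was 1.10 to 3.17 times the E12 mean, with a median of 1.48, where the median over all 50 rows was 0.961. It was 1.03 to 2.83 times the E16 mean, with a median of 1.39. In 8 rows the E16 mean lay between those of E12 and E20, and in the other 5 it lay below E12. The 8 did not share a gradual rise, since their E16 mean was from 1.02 times (row 1) to 2.33 times (row 10) the E12 mean. The next highest stage was E16 in 7 rows, E12 in 4 and E24 in 2. The peak was narrow in few of them. Row 18 alone had no other stage at 50% or more of its E20 mean, rows 8 and 27 had 1 further stage at that level, and row 11 had all 7 stages there.

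**Figure D1:**
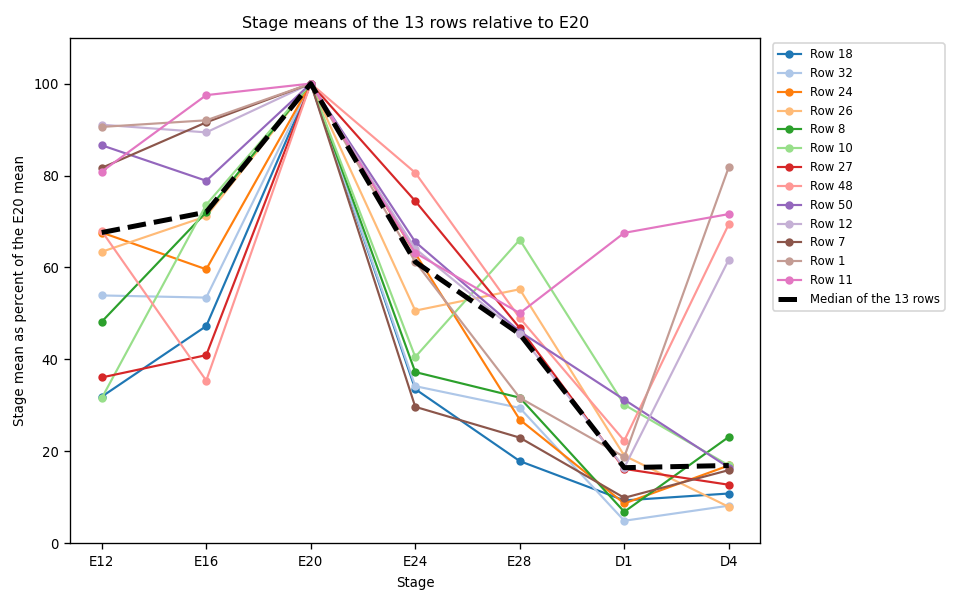
Stage means of the 13 rows as percent of their own E20 mean (y axis) over the 7 stages (x axis), with 1 line per row and the median as a dashed line. The lines spread from 31.6% to 91.0% at E12, reach 100% at E20 by the choice of the rows, and on D4 fall into 9 rows at or below 23.1% and 4 rows at or above 61.7%.

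The tallest peak belonged to row 18, with 2.12 times as much at E20 as at its next highest stage. Its relative expression at E20 ran from 0.593 through a median of 3.39 to 8.06 (mean 3.91 ± 1.92 SD, n = 19). At E12 the animals lay between 0.149 and 2.91 with a median of 1.08 (1.25 ± 0.858 SD, n = 19), and at E16 between 0.685 and 3.73 with a median of 1.74 (1.85 ± 0.904 SD, n = 20). The ranges overlapped, and 14 of the 19 animals at E20 lay above the highest animal at E12. At E24 the mean was 1.31 ± 0.702 (SD, n = 18), close to that of E12. It was 0.699 ± 0.408 (SD, n = 17) at E28, 0.365 ± 0.197 (SD, n = 14) on D1 and 0.423 ± 0.248 (SD, n = 18) on D4. Of the D1 animals, 5 had no Ct for row 18, so the D1 mean was taken over those in which the gene was read.

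Row 27 was low at E12 and E16 and high at E20. The mean was 1.06 ± 0.286 (SD, n = 19) at E12 and 1.20 ± 0.309 (SD, n = 20) at E16, then 2.93 ± 0.802 (SD, n = 19) at E20. At E20 the animals lay between 1.24 and 4.55 with a median of 2.73, and 18 of 19 were above every animal of E12 and of E16. Row 27 was 1 of only 2 rows whose second highest stage was E24, at 2.18 ± 0.941 (SD, n = 19). It kept 46.8% of the E20 mean at E28, then reached 0.474 ± 0.237 (SD, n = 19) on D1 and 0.373 ± 0.241 (SD, n = 19) on D4. Every D4 animal with a value lay below the lowest of E20, and 1 further D4 animal had a Ct but no value.

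The largest ratio of E20 to E12 was that of row 10, and its E16 mean was already above E12. Its mean went from 0.742 ± 0.188 (SD, n = 18) at E12 to 1.73 ± 0.758 (SD, n = 20) at E16 and 2.35 ± 1.14 (SD, n = 20) at E20. The lowest animal at E20, with 1.12, was above the highest with a value at E12, 1.08. At E12, 1 further animal had a Ct but no value, and its value computed from the Ct lay above 1.08. Whether that animal reached the E20 range was not examined. Unlike most of the rows, row 10 had a second high stage at E28, where the animals ran from 0.238 through a median of 1.61 to 3.50 (mean 1.55 ± 0.895 SD, n = 20), after 0.952 ± 0.358 (SD, n = 19) at E24. Neither test described below called the difference between E24 and E28 in row 10, 0.53 ± 0.261 (SE) between log2 means. On D4 row 10 was at its lowest, 0.398 ± 0.166 (SD, n = 19).

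**Figure D2:**
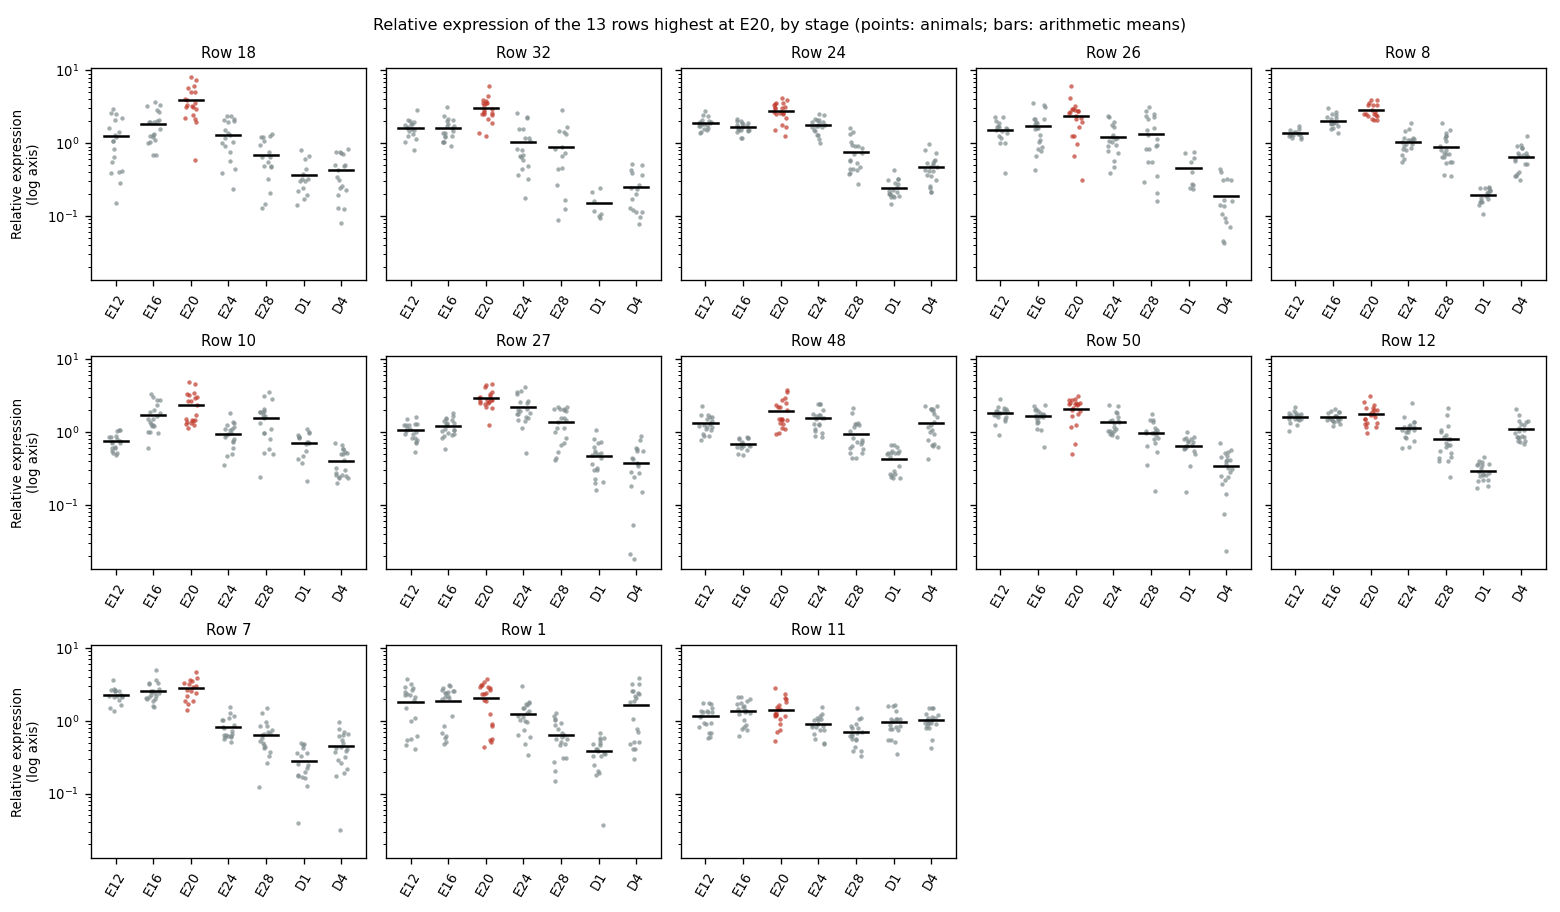
Relative expression on a log axis (y) by stage (x) in the 13 rows, ordered by the ratio of the E20 mean to the next highest stage mean; each point is 1 animal, E20 is red and black bars are arithmetic means. Row 18 is 2.12 times and row 11 is 1.03 times its next highest stage. The E20 animals of rows 8 and 10 lie above all their E12 animals with a value.

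In rows 32, 24 and 26 neither test described below called a difference between E12 and E16. Row 32 measured 1.63 ± 0.473 (SD, n = 17) at E12 and 1.62 ± 0.558 (SD, n = 19) at E16, and then 3.03 ± 1.12 (SD, n = 19) at E20, with E20 animals from 1.27 through a median of 2.83 to 6.04. Its D1 mean was the smallest share of E20 among the 13 rows, 0.148 ± 0.0604 (SD), where the 7 animals with a value lay between 0.0945 and 0.246. The other 12 D1 animals had no value in row 32, 11 of them because no Ct was read. Row 26 went from 1.52 ± 0.475 (SD, n = 17) at E12 and 1.70 ± 0.890 (SD, n = 20) at E16 to 2.40 ± 1.29 (SD, n = 20) at E20, where its animals spread from 0.316 to 6.06 around a median of 2.47. On D4 it held 7.92% of the E20 mean, the smallest share of the 13 rows, with 0.190 ± 0.134 (SD, n = 15). Row 24 measured 1.88 ± 0.357 (SD, n = 19) at E12, 1.66 ± 0.270 (SD, n = 19) at E16 and 2.79 ± 0.805 (SD, n = 20) at E20.

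Among the animals with a value, rows 8 and 48 separated E20 from a neighboring stage most cleanly. In row 8 the 17 animals at E20 (2.10 to 3.94, median 2.52) overlapped with no animal of E12 (1.15 to 1.73, median 1.34), E24 (0.543 to 1.87, median 1.05), E28, D1 or D4, and only E16 (1.37 to 3.00, median 1.92) reached into their range. In row 48 the E16 animals were the low ones. They lay between 0.480 and 0.853 (0.682 ± 0.115 SD, n = 17), below every animal at E20 (0.938 to 3.79, median 1.51), while E12 stood at 1.31 ± 0.367 (SD, n = 19) and E24 at 1.55 ± 0.510 (SD, n = 19). Counted over the 13 rows, all E20 animals lay above all E12 animals in 2 rows (6% of the 50 rows did so), above all E16 animals in 1 (2%), above all E24 animals in 1 (10%), above all E28 animals in 1 (6%), above all D1 animals in 8 (40%) and above all D4 animals in 6 (24%). Since the rule used these stage means, nothing is read from these counts. The ranges and counts cover only the animals with a value. At E12 in row 8 and at E16 in row 48, 3 animals each had a Ct but no value. Computed from the Ct, they lay above the kept animals of their stage, and whether they overlapped with E20 was not examined.

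At the other end, several rows entered by a small margin. Row 11 measured 1.42 ± 0.575 (SD, n = 20) at E20 and 1.38 ± 0.463 (SD, n = 20) at E16, a ratio of 1.03, and its median was higher at E16 (1.38) than at E20 (1.27). Row 1 had 2.03 ± 1.10 (SD, n = 20) at E20, 1.87 ± 0.934 (SD, n = 20) at E16 and 1.84 ± 1.04 (SD, n = 19) at E12. In row 7 the values were 2.80 ± 0.898 (SD, n = 16) at E20, 2.56 ± 0.812 (SD, n = 20) at E16 and 2.29 ± 0.538 (SD, n = 17) at E12. These differences are smaller than the SD between animals of 1 stage. Just outside the rule were row 36, with 1.77 at E20 against 1.78 at E16, row 45, with 2.47 against 2.49 at E12, and row 25, with 2.86 against 2.95 at E12. Rows 12 and 50, with 1.10 and 1.16 times their next highest stage, also had E12 as a close second.

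The references moved at the same time as the peak. Reference rows 51, 52 and 53 were read 1.08, 1.14 and 1.43 cycles later at E20 than at E12, and 1.03, 0.985 and 1.00 cycles later than at E16. Reference rows 54 and 55 changed little, by -0.02 and 0.06 cycles from E12 and by -0.14 and 0.16 cycles from E16. Over all 5, the mean was 0.738 cycles later at E20 than at E12, and a later reference raises the relative expression of every target. The Ct of the targets themselves, which no reference enters, was earlier at E20 than at E12 in 5 of the 13 rows and later in 8, with a median of 0.252 cycles later, against 0.853 over all 50 rows. The mean Ct was earliest at E20 in rows 18, 27 and 32, and these were the only such rows among the 50. It was earliest at E12 in 7 of the 13 and at E16 in 3. These mean Ct values cover every animal with a Ct, also those with no relative expression. With no reference, the arithmetic mean amount over animals with a value was higher at E20 than at E12 in 7 of the 13 rows. The part of the references in the peak was not tested.

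**Figure D3:**
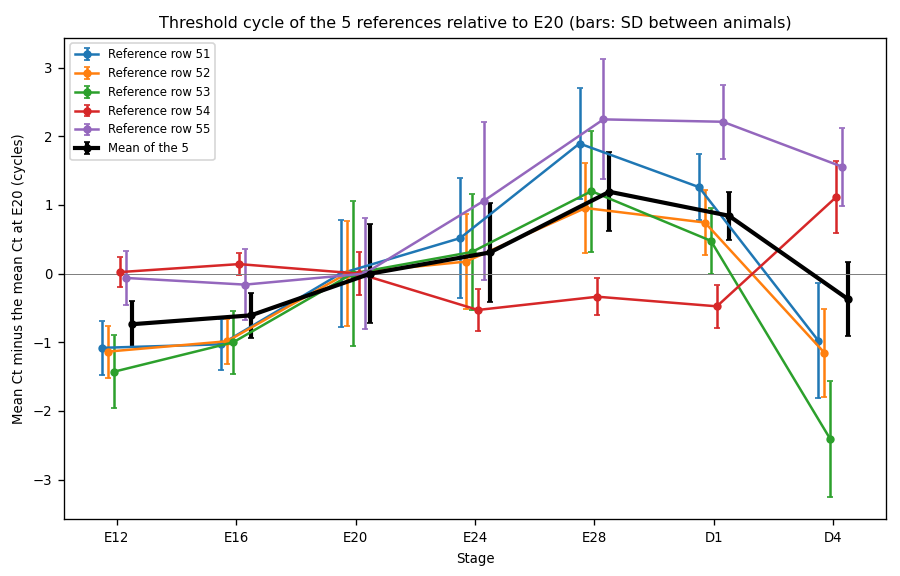
Mean Ct of the 5 references and of their mean, minus the mean Ct at E20 (y axis, cycles), by stage (x axis); bars are the SD between animals. Reference rows 51, 52 and 53 lie 0.985 to 1.43 cycles below E20 at E12 and E16, while rows 54 and 55 lie within 0.161 cycles of it.

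When the relative expression was computed again with other references, the 13 rows parted into groups. With reference row 52 or 53 alone all 13 stayed highest at E20, and with row 51 alone 12 did. With row 54 alone or row 55 alone only 3 did, and the whole table then held 3 rows highest at E20, against 20, 22 and 28 with rows 51, 52 and 53. Rows 18 and 32 stayed highest at E20 with each of the 5 references alone, with each left out and with no reference. Rows 8 and 27 stayed so with 4 of the 5 single references, row 10 with 2 and each of the other 8 rows with 3. Under reference row 54 alone or row 55 alone, rows 1, 11, 12 and 48 were highest on D4. Row 11 was the least settled, with its highest mean at E16 when reference row 51, 52 or 53 was left out.

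**Figure D4:**
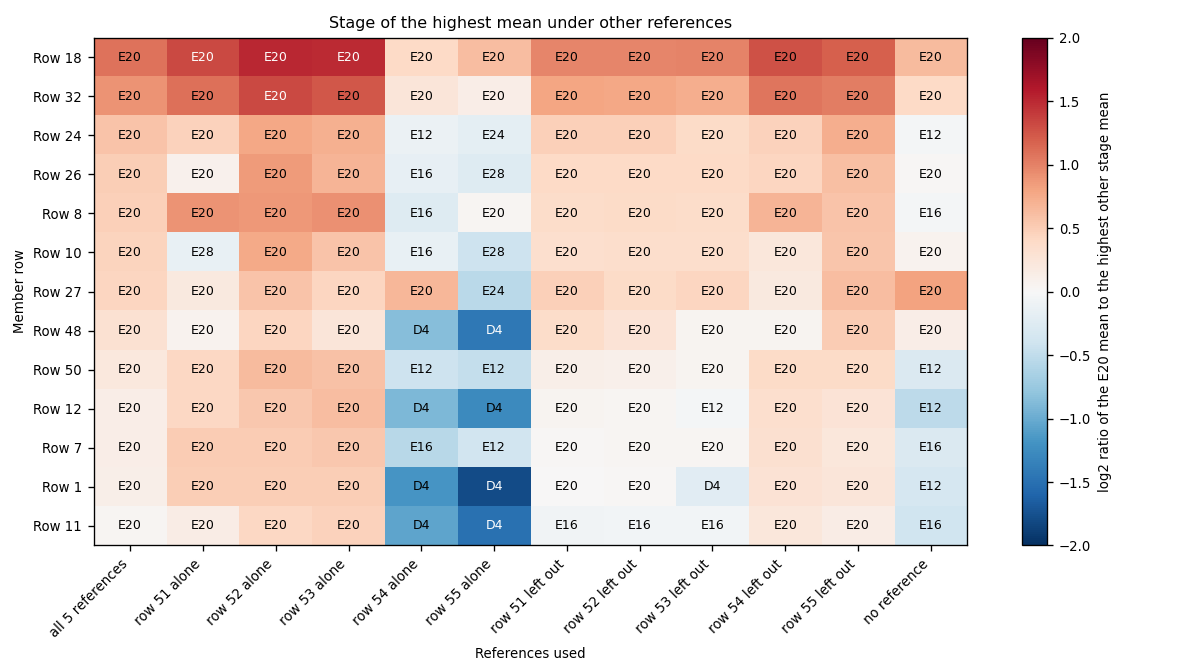
Stage of the highest mean (text) and log2 ratio of the E20 mean to the highest other stage mean (color) in the 13 rows (y axis) under each set of references (x axis). Rows 18 and 32 read E20 in every column, and only 3 rows do in each of the columns with row 54 alone and row 55 alone.

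After E20 all 13 rows were lower, by the choice of the rows, and by how much varied. The E24 mean was 29.7% to 80.6% of the E20 mean, with a median of 61.2% against 59.2% over all 50 rows. At E28 the median stood at 45.5%, with row 18 lowest at 17.9% and row 10 highest at 66.0%. On D1 the median was 16.4%, from 4.90% in row 32 to 67.5% in row 11, against a median of 33.9% over all 50 rows and of 11.5% in the 14 rows highest at E12 or E16. Below 25% of the E20 mean were 10 of the 13 rows and 21 of the 50. The stage of the lowest mean was D1 in 8 rows, D4 in rows 10, 26, 27 and 50 and E28 in row 11, and D1 was the lowest stage in 26 of all 50 rows. In all 16 other settings tried, which include each single reference, 12 (with reference row 55 alone) or 13 (in the others) of the 13 rows had a lower mean on D1 than at E20, and the median log2 ratio of D1 to E20 ranged from -3.91 to -1.14. The other stages varied more. At E24, 7 to 13 of the rows lay below E20, and the median log2 ratio ranged from -1.50 to -0.03. At E28 these were 10 to 13 rows and -2.66 to -0.12, and on D4 9 to 13 rows and -4.60 to -0.56. The rule used these means and most settings share the same Ct, so these are descriptions of how the size varied.

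Comparisons that leave out E20 are given next. The rule used the means of all 7 stages in the same animals, and by requiring every stage to lie below E20 it left out the 20 rows highest on D4. The p-values come from the same animals that the rule used and are not independent of the choice of rows. The counts of the 13 rows are descriptions, from which nothing is read against the shares of all rows. The procedure of the study's methods was run on all 50 rows, with ANOVA and Bonferroni comparisons, or Kruskal-Wallis and Dunn comparisons, over the 21 pairs of stages. A permutation test of log2 means, adjusted over the 50 rows by the Benjamini-Hochberg method, was set beside it. For each row it uses only the animals of the stages compared. ANOVA, used in 3 of the 13 rows, pools the spread of all stages on the linear scale. Dunn comparisons, used in the other 10, rank the animals of all stages together. Between E24 and E28, the methods' procedure called 3 of the 13 rows lower at E28 (12% of all 50 rows were called lower) and the permutation test called 8 (46%). Row 24 fell from 1.76 ± 0.405 (SD, n = 19) to 0.749 ± 0.377 (SD, n = 20), a change of -1.36 ± 0.178 (SE) between log2 means (permutation test, adjusted p = 8.33e-05). Rows 27 and 48 were the others called lower by both tests, by -0.71 and -0.80 on the log2 scale (permutation test, adjusted p = 0.0147 and 0.0011). With reference row 54 alone none of the 13 rows was called between E24 and E28 by the methods' procedure, and with row 55 alone 1 was called lower and 1 higher.

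Across hatching, the rows went down again. From E28 to D1 the methods' procedure called 4 of the 13 rows lower (14% of all rows) and 0 higher (14%), while the permutation test called 12 lower (52%) and 1, row 11, higher (28%), and 80% of all rows were called in either direction. The median difference between log2 means was -1.24 in the 13 rows and -0.58 over the 50. This contrast is fixed in part by the rule, which left out the rows highest on D1 or D4. The D1 mean was a median of 43.0% of the E28 mean in the 13 rows. In the 14 rows highest at E12 or E16 that median was 37.3%. Row 8 changed most among the 4 called by both tests, from 0.893 ± 0.408 (SD, n = 20) at E28 to 0.193 ± 0.0414 (SD, n = 17) on D1, a change of -2.10 ± 0.168 (SE) between log2 means (permutation test, adjusted p = 2.63e-05). Rows 27, 48 and 10 followed, with changes of -1.52, -1.08 and -0.96 (permutation test, adjusted p = 2.63e-05, 2.63e-05 and 0.00341). On D1, 2 animals of row 8 and 3 of row 10 had a Ct but no value. Computed from the Ct, they lay above the kept D1 animals, and the changes given leave them out. In rows 26 and 32, read in 9 and 7 animals on D1, the exact permutation test gave adjusted p = 0.0177 and 0.0039. Those rows lacked a Ct in 10 and 11 of the 19 D1 animals. With reference row 54 alone or with no reference, the methods' procedure called none of the 13 rows lower on D1, and the cause was not tested.

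From D1 to D4 the 13 rows went separate ways. The methods' procedure called rows 1, 12 and 48 higher on D4 (54% of all 50 rows were called higher) and none lower (2%). The permutation test called 5 higher, rows 8 and 24 in addition (72%), and 3 lower, rows 10, 26 and 50 (8%). In either direction the methods' procedure called 56% of all rows and the permutation test 80%. These shares of all rows include the 20 rows highest on D4, which the rule left out. In row 1 the animals ran from 0.037 through a median of 0.387 to 0.684 on D1 and from 0.296 through 1.84 to 3.84 on D4, a difference of 1.91 ± 0.348 (SE) between log2 means (permutation test, adjusted p = 1.72e-05). Rows 12 and 48 rose by 1.89 and 1.56 (permutation test, adjusted p = 1.72e-05 for each). Row 50 changed in the opposite direction, with 0.650 ± 0.189 on D1 (SD, n = 19) and 0.343 ± 0.173 on D4 (SD, n = 20), or -1.12 ± 0.288 (SE) between log2 means (permutation test, adjusted p = 0.000162). Row 10 had 0.708 ± 0.246 on D1 (SD, n = 16) and 0.398 ± 0.166 on D4 (SD, n = 19), or -0.85 between log2 means (permutation test, adjusted p = 0.000653). In row 26 the 9 animals of D1 had 0.457 ± 0.217 and the 15 of D4 had 0.190 ± 0.134 (exact permutation test, adjusted p = 0.00247). No Ct of row 26 was read in 10 animals of D1 and in 5 of D4, and both means leave these out. In the animals read, its mean Ct was 24.0 on D1 and 24.2 on D4, while the mean of the references was 15.8 and 14.5. The part of the missing reads in this fall was not tested.

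These directions after hatching changed with the references. From D1 to D4 reference row 53 went from 15.7 to 12.8 cycles and reference row 54 from 9.70 to 11.3 cycles, in opposite directions. The methods' procedure called 11 of the 13 rows higher on D4 with reference row 54 alone, 5 with row 55 alone and 0 with row 51, 52 or 53 alone or with row 54 left out. With those last 4 reference sets it called 1 or 2 of the 13 rows lower. The falls of rows 10, 26 and 50 turned into rises of 2.07, 1.37 and 1.69 on the log2 scale with reference row 54 alone.

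On D4 the 13 rows parted into 2 sets. Rows 1, 11, 48 and 12 held 81.8%, 71.6%, 69.4% and 61.7% of their E20 mean, and the other 9 held between 7.92% and 23.1%. The median of the 13 rows was 16.9% and that of all 50 was 113%, a contrast fixed in part by the rule, which keeps every D4 mean below E20. Compared with E12, the start of the series, the methods' procedure called 8 of the 13 rows lower on D4 (38% of all rows) and 0 higher (34%, a share that includes rows highest on D4, which the rule left out), and the permutation test called 10 lower (44%, and 88% in either direction). Row 26 had the largest difference, from 1.52 to 0.190, or -3.27 ± 0.318 (SE) between log2 means (permutation test, adjusted p = 1.47e-05). Rows 32, 50 and 7 followed with -2.92, -2.65 and -2.59 (permutation test, adjusted p = 1.47e-05 for each). Rows 1, 11 and 48 were called by neither test, with differences of -0.26 ± 0.363, -0.15 ± 0.157 and -0.09 ± 0.190 (SE). Over all 17 alternatives, 5 to 12 of the 13 rows were called different between E12 and D4, lower in every case but 1 row that was higher with reference row 55 alone.

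**Figure D5:**
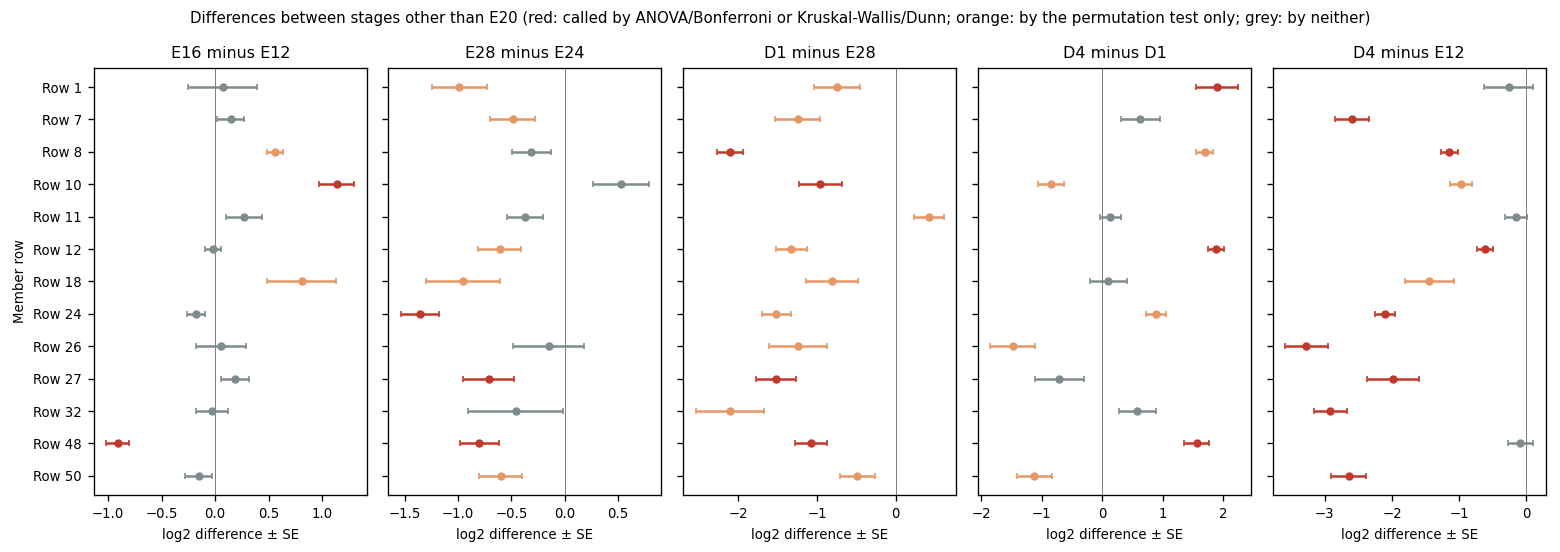
Difference between log2 means ± SE (x axis) of the 13 rows (y axis) in the 5 comparisons that leave out E20; red rows were called by the methods' procedure, orange rows by the permutation test alone and grey rows by neither. From E28 to D1, 12 of the 13 points lie below 0, while from D1 to D4 they lie on both sides, 9 above and 4 below.

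Before the peak, few rows moved between E12 and E16. The methods' procedure called 1 of the 13 rows higher at E16 (2% of all rows), row 10, and 1 lower (2%), row 48. The difference between log2 means was 1.13 ± 0.166 (SE) in row 10 and -0.91 ± 0.109 (SE) in row 48 (permutation test, adjusted p = 0.000125 for each). The permutation test also called rows 8 and 18 higher, by 0.56 and 0.81, 3 of the 13 rows in all (16%), and no further row lower (16%). For the other 9 rows the differences lay within -0.18 and 0.27, and neither test called them.

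The spread between animals of 1 stage had a higher median in these rows than over the panel at 6 of the 7 stages. The SD at E20 was 21.9% to 54.0% of the mean, with a median of 37.1% against 29.8% over the 50 rows. The medians of the 13 rows and of all 50 were 27.1% and 23.6% at E12, 31.7% and 21.98% at E16, 36.6% and 31.5% at E24, 39.3% and 37.8% on D1 and 50.5% and 39.3% on D4. At E28 both were 50.8%. These SDs cover only the animals with a value. In the 13 rows, 41 animal and row combinations had a Ct but no value. Computed from the Ct, all 41 lay above the kept animals of their row and stage. On D1, 11.3% of the possible values of the 13 rows had no Ct. The effect of these gaps on the spread was not examined. Taken animal by animal, each of the 20 animals at E20 had between 76.9% and 100% of its measured rows at 50% or more of the E20 mean of that row. This share was 46.2% to 90% at E12, 53.8% to 84.6% at E16 and 23.1% to 84.6% at E24, all of which overlap with E20. It was 0% to 72.7% at E28, 0% to 11.1% on D1 and 8.33% to 33.3% on D4. Every D1 animal thus lay below every E20 animal in this share, as the choice of rows favors.

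From animal to animal the 13 rows varied together weakly. With the stage mean of the log2 values removed, the Pearson correlation between pairs of them over all animals had a median of 0.13 over the 78 pairs and a range of -0.18 to 0.47, and the Spearman correlation had a median of 0.11. The median was 0.15 for Pearson among pairs of the other 37 rows. Within the E20 animals alone, the median Pearson correlation was -0.05 among the 78 pairs and 0.20 among the pairs of other rows. It was also lower among the 13 rows than among the others at E12, E16, D1 and D4. At E24 it was higher, 0.26 against 0.22, and at E28 likewise, 0.31 against 0.27. All rows of an animal share the same references and the same cDNA, so these correlations are descriptions and carry no test.

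Missing values were concentrated after hatching. Of the 1781 possible values of the 13 rows, 45 had no Ct, 28 of them on D1, 11 on D4, 6 at E28 and 0 at the earlier stages. They came from rows 32 (19), 26 (15), 18 (9) and 7 (2), all of which had a low mean on D1 or D4. The stage means there are taken over the animals in which the gene was read. No Ct was missing at E20 in any of the 13 rows.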

How the data were processed

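Livers of mule ducks at 7 stages were measured by EvaGreen quantitative PCR on Fluidigm microfluidic arrays after preamplification. The authors deposited the Ct of 55 rows, entered here as a score in cycles, and the relative expression of 50 target rows, a linear ratio of each target to 5 references with an efficiency of 2. The ratio recomputed from the Ct deviated by at most 0.00283 on the log2 scale. The 13 rows and the comparisons were chosen with earlier results of these data known.

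Animals were grouped by the stage in their labels. Full values are given for the 3 rows with the largest rise from E12, the 3 with the smallest margin at E20, the 3 with the highest and the 3 with the lowest share left on D4, and the others were chosen after their values were seen. Shapiro-Wilk tests within stages led to ANOVA with Bonferroni comparisons in 19 rows and to Kruskal-Wallis with Dunn comparisons in 31, at a threshold of 0.05. Permutation tests were 2-sided with 100000 resamples, exact where a stage had under 10 values, and Benjamini-Hochberg adjusted over the 50 rows of a comparison. The smallest p the resamples can give is 1e-05. On 1000 simulated rows, 98% of those shifted by 2 on the log2 scale were called between D1 and D4, and 0.125% of the others. In that simulation D4 alone was shifted and the other stages were equal, whereas the real rows differ at many stages. These shares therefore do not say how often a shift of that size is called in the real rows. Missing values stayed missing, with no pseudocount. Which array held which animal was not stated, and precision is limited by the number of animals, without any read depth. Python 3.11.15, numpy 2.4.6, pandas 2.3.3, scipy 1.17.1 and matplotlib 3.10.9 were used. The alternatives were other references, every Ct value kept, 1 animal per stage left out, other stage summaries and other tests, the replicate block among them.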

Additional observations from a re-analysis of the deposited data

Results flagged for a closer look

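For 41 animal and row combinations among the 13 rows, the Ct was deposited while the relative expression was blank, a signal in data that the comparisons did not use. When computed from the Ct, all 41 exceeded the highest retained value of their row and stage. The pattern was not particular to the 13 rows. Over all target rows there were 181 such blanks, or 2.64% of the possible values against 2.30% in the 13 rows. Of these, 173 lay above the kept values and 8 below. The paper states that Ct values with aberrant melting temperatures or double melting peaks were removed. Whether these blanks arose in that way was not tested. Most of the 41 fell on E12 (10), E20 (10), D1 (7) and E16 (6). A further 3 each fell at E24 and E28 and 2 on D4. Row 8 had the most, 9 in all with 3 at E12 and 3 at E20, and row 7 had 4 at E20. With these values restored, all 13 rows stayed highest at E20.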

How the results depend on the processing

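Of 13 rows, 3 stayed highest at E20 with reference row 54 or 55 alone and 6 with no reference, and the 13 other settings kept 10 to 13. The log2 ratio of E20 to the highest other stage turned negative with row 54 alone in rows 1 (-1.17), 7 (-0.55), 8 (-0.26), 10 (-0.15), 11 (-1.06), 12 (-0.90), 24 (-0.12), 26 (-0.17), 48 (-0.85) and 50 (-0.41). With row 55 alone it did so in rows 1 (-1.78), 7 (-0.38), 10 (-0.41), 11 (-1.50), 12 (-1.28), 24 (-0.19), 26 (-0.26), 27 (-0.53), 48 (-1.43) and 50 (-0.48). With no reference these were rows 1 (-0.33), 7 (-0.29), 8 (-0.041), 11 (-0.40), 12 (-0.52), 24 (-0.047) and 50 (-0.29). Row 10 turned with row 51 alone (-0.14). With row 53 left out rows 1 (-0.23), 11 (-0.058) and 12 (-0.043) turned, and row 11 also with row 51 (-0.071) or 52 (-0.057) left out. Stage medians turned rows 11 (-0.12) and 48 (-0.031). The median log2 ratio over the 13 rows of E12 to E20 became 0.026 with row 54 alone and 0.11 with row 55 alone, and that of E16 to E20 became 0.17 with row 54 alone. The log2 difference of D4 and D1 turned with row 54 alone in rows 10 (2.07), 26 (1.37) and 50 (1.69), with no reference in rows 10 (0.48) and 50 (0.093), and with row 53 alone in row 48 (-0.11). The permutation test was repeated for 15 row differences, none of them between E12 and D4. In 13 of the 195 repeats the direction held and the call was lost.

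The counts of rows called moved as follows. Between E12 and E16 (2 by the methods' procedure) there were 1 with row 53 alone, 0 with row 54 alone, 1 with no reference and 4 by the permutation test. Between E24 and E28 (3) there were 1 with row 51 alone, 1 with row 53 alone, 0 with row 54 alone, 1 with row 54 left out and 8 by the permutation test. Between E28 and D1 (4) there were 8 with row 51 alone, 2 with row 52 alone, 0 with row 54 alone or with no reference, 2 with row 51 or row 53 left out, 9 by ANOVA on log2 values, 13 by the permutation test and 8 with the replicate block. Between D1 and D4 (3 higher) there were 11 with row 54 alone, 5 with row 55 alone, and 5 with no reference, all higher. There were 8 in either direction, 5 higher and 3 lower, by ANOVA on log2 values, by the permutation test and with the replicate block. The direction was reversed, with 2 lower with row 51 alone, 1 with row 52 alone, 1 with row 53 alone and 2 with row 54 left out. Between E12 and D4 (8) there were 5 with row 54 alone. The cause was not tested. With the replicate block 3 rows were called between E12 and E16, 3 between E24 and E28 and 10 between E12 and D4, and all 13 stayed highest at E20. The replicate numbers do not pair the animals, since each animal gave 1 liver at 1 stage. The mean correlation of same-numbered animals was -0.00222 over 402 pairs, of which 130 were over 0.1. That mean cannot by itself show whether animals are paired. Precision is limited by the animals per stage, and rows 26 and 32 rest on 9 and 7 animals on D1.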
